A study of Oryza sativa Japonica Group with 12 samples.

Results

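The genes described here were those with a low array signal in ‘CH7’ only, among 3 temperate *japonica* rice parents. The study reports many sequence variants in each of these parents. Whether variants under the probes lower the ‘CH7’ signal was not tested. A probe set with 1 listed gene was taken where the lowest of the 4 ‘CH8’ and ‘CH9’ arrays exceeded the highest of the 2 ‘CH7’ arrays by at least 1 on the log2 scale, which is 2-fold. The gap was reached by 228 of the 24080 probe sets with 1 listed gene. *CESA4*, *CESA9*, *CIPK33*, *KIN13B* and *KIN14H* were left out by name, so that 223 probe sets remained of the 54922 on the array, each for a different gene. Only 32 of the 223 genes have a name of their own, and the others are given by their LOC identifier.

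Whole plants were sampled at tillering and cut into pieces, and total RNA was hybridized to 12 Affymetrix arrays, 2 for each line. The lines were the hybrids ‘CH7/8’ and ‘CH7/9’, the hybrid ‘CH8/9’ without a ‘CH7’ genome, all of them F1, and their parents ‘CH7’ (‘Aranghyangchalbyeo’), ‘CH8’ (‘Sanghaehyangheolua’) and ‘CH9’ (‘Shinseonchalbyeo’), all untreated and grown in a greenhouse. All of the hybrids show hybrid weakness, a poor growth of the F1 between parents that grow normally. The methods describe each RNA as coming from an independent plant, and more replicates per line than the arrays analysed here. A whole plant mixes organs, so fewer cells of a type and less RNA per cell cannot be told apart.

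Growing grass cells are surrounded by a primary wall of cellulose microfibrils in a matrix of xylan and mixed-linkage glucan. Cellulose synthase (CESA) complexes in the plasma membrane make the microfibrils, expansins and glucanases loosen the wall during expansion, and cells that have stopped growing, such as fibres and vessels, lay down a secondary wall with another set of CESA proteins. More named genes of the set belonged to a list of such cell wall genes than to any of the other lists used here.

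The parental values chose the genes and are therefore given as a description, with no test. All levels below are log2 of the deposited intensity. The median of the 223 genes was 3.83 and 3.90 on the ‘CH7’ arrays, against 6.76 and 6.24 on the ‘CH8’ arrays and 5.80 and 6.07 on the ‘CH9’ arrays. The ‘CH7’ medians were close to the median of all probe sets on these arrays, 3.56 and 3.54, and 89 and 88 of the 223 genes lay below it there, so that for many of them the ‘CH7’ value is near the dim end of the array. ‘CH8’ was the higher of the other parents for 183 genes, and for 120 genes both ‘CH8’ arrays lay above both ‘CH9’ arrays. The gap was at least 2 for 28 genes. The genes just inside the threshold were LOC4335786, LOC4341926 and LOC4334441 with gaps of 1.006, 1.012 and 1.014, and those just outside were LOC4339568, LOC4334862 and the cellulose synthase-like gene *CSLC9* with gaps of 0.999, 0.996 and 0.996. The threshold thus cuts through a continuous range of values.

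The arrays of a line did not vary equally over these genes. The ‘CH7/8’ arrays were at least 2-fold apart for 115 of the 223 genes (51.6%), whereas they were so for 6.17% of all probe sets. Between the arrays of the other lines, 36 genes were 2-fold apart in ‘CH7/9’, 24 in ‘CH8/9’, 14 in ‘CH7’, 71 in ‘CH8’ and 25 in ‘CH9’. ‘CH7/8’ replicate 2 was the higher array of its line for all but 60 genes, by a median of 0.79. Each result on ‘CH7/8’ is therefore given for its arrays apart. Whether its replicates differ as plants or as libraries cannot be told apart.

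**Figure D1:**
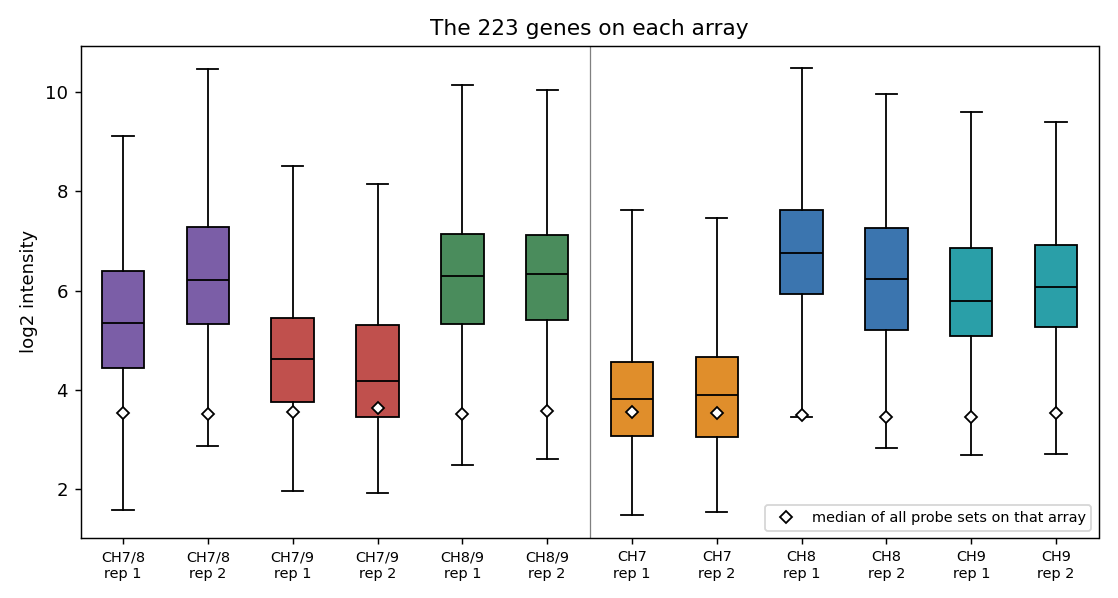
Log2 intensity of the 223 genes on each of the 12 arrays, hybrids left and parents right. Boxes give the quartiles with the median as a line, whiskers reach the lowest and highest gene, and diamonds give the median of all probe sets on that array; the ‘CH7/9’ medians, 4.62 and 4.19, lie nearest to those of ‘CH7’.

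The hybrids that carry a ‘CH7’ genome differed in these genes. The median of the 223 genes was 5.34 and 6.22 on the ‘CH7/8’ arrays, 4.62 and 4.19 on the ‘CH7/9’ arrays and 6.29 and 6.34 on the ‘CH8/9’ arrays. Thus ‘CH8/9’, with no ‘CH7’ parent, was at the level of ‘CH8’ and ‘CH9’. Both ‘CH7/9’ arrays lay closer to ‘CH7’ than to ‘CH9’, and ‘CH7/8’ had 1 array between the parents and 1 array near ‘CH8’.

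The level in a hybrid was expressed as a position, with 0 at the ‘CH7’ mean and 1 at the mean of the other parent, and called near a parent within 0.25 of it or beyond it. These positions use the parental values and are not tested. In ‘CH7/9’ the median position was 0.33 on replicate 1 and 0.16 on replicate 2. Replicate 1 had 85 genes near ‘CH7’, 125 between and 13 near ‘CH9’, and replicate 2 had 134, 60 and 29. By the mean of the arrays, 116 genes (52.0%) were near ‘CH7’ and 16 near ‘CH9’ in this hybrid. The number near ‘CH7’ depends on the scale, and on the linear scale it was 140 on replicate 1 and 162 on replicate 2.

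‘CH7/8’ was placed differently. Its replicate 1 had a median position of 0.54, with 32 genes near ‘CH7’, 130 between and 61 near ‘CH8’. Its replicate 2 had a median position of 0.89, with 3 near ‘CH7’, 65 between and 155 near ‘CH8’, and 86 genes were above the ‘CH8’ mean. Both arrays were above both ‘CH7’ arrays for 214 genes, whereas in ‘CH7/9’ this held for 125 genes. For ‘CH8/9’, set between ‘CH7’ and the mean of its own parents, the medians were 0.98 and 1.06. On the linear scale the same values gave lower medians of 0.31 and 0.74 for ‘CH7/8’ and of 0.18 and 0.07 for ‘CH7/9’, and on that scale 92 and 21 genes were near ‘CH7’ and 36 and 110 near ‘CH8’ in ‘CH7/8’. How far a hybrid departs from its mid-parent depends on the scale.

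**Figure D2:**
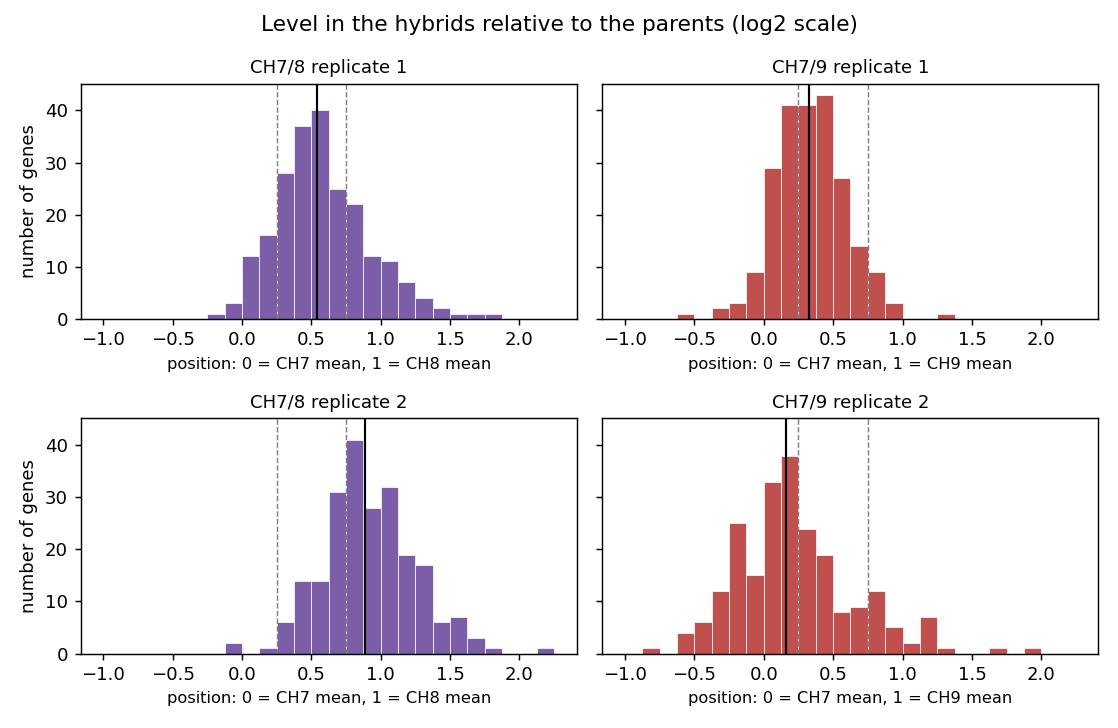
Number of genes by position on each array of ‘CH7/8’ (left) and ‘CH7/9’ (right), on the log2 scale, where 0 is the ‘CH7’ mean and 1 the mean of the other parent. Dashed lines mark 0.25 and 0.75 and the solid line the median, which is 0.54 and 0.89 for ‘CH7/8’ and 0.33 and 0.16 for ‘CH7/9’.

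The rule that chose the genes used no values of the hybrid arrays, and comparisons among these arrays were tested. The set was chosen with earlier results of these data known, so the tests are not fully independent of the choice. The limma fit used the 6 hybrid arrays and all 54922 probe sets, with a call at a Benjamini-Hochberg adjusted p no higher than 0.05 and a 2-fold difference or more. The comparisons share arrays and are not independent of each other. The first asks whether genes low in ‘CH7’ are also low in a hybrid that has ‘CH7’ in place of ‘CH8’ beside ‘CH9’. Both ‘CH7/9’ arrays lay below both ‘CH8/9’ arrays for 206 of the 223 genes (92.4%), against 18.7% of all probe sets, and by at least 2-fold for 138 genes, against 1.81% of all probe sets. Among the 24080 probe sets with 1 listed gene, from which the set was drawn, these shares were 28.2% and 3.37%. The median difference, ‘CH7/9’ minus ‘CH8/9’, was -1.75 over the 223 genes and 0.11 over all probe sets, and the values were below 0 for 214 genes (96.0%, against 37.0% of all probe sets). Over the probe sets with 1 listed gene the median was 0.05, and 45.6% were below 0. An unadjusted p under 0.05 was reached in the lower direction by 167 genes and in the higher direction by 1, *ACS1*, where 6.09% and 8.79% of all probe sets did so. Of the probe sets with 1 listed gene, 9.90% and 10.1% did. The dim end of ‘CH7/9’ replicate 2 was raised, with a first quartile of 5.71 in linear intensity, against 4.76 to 5.02 on the other arrays. Its part in the shares and medians over all probe sets was not tested.

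After adjustment a single gene, LOC4350827, was called lower in ‘CH7/9’ and none higher, where 0.0492% and 0.0328% of all probe sets were called. LOC4350827 had 5.03 and 4.79 in ‘CH7/9’, against 6.97 and 7.20 in ‘CH8/9’, a difference of -2.17 (SE 0.20, adjusted p = 0.0438). In ‘CH7/8’ it had 7.12 and 6.92. The parents had 4.11 and 4.69 in ‘CH7’, against 6.76 and 8.06 in ‘CH8’ and 6.83 and 6.86 in ‘CH9’. Thus both ‘CH7/9’ arrays were above the ‘CH7’ arrays, at positions of 0.26 and 0.16, and the other hybrids were in the range of the high parents. The number of calls turned on the ‘CH7/8’ arrays, although these are not compared here. Without either of them, as on the 4 arrays of the lines compared, 82 of the 223 genes were called lower in ‘CH7/9’, and with all 12 arrays 62 were, in a fit whose spread uses the parental arrays that chose the genes. Without any 1 of the ‘CH7/9’ or ‘CH8/9’ arrays none was called.

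The corresponding comparison of ‘CH7/8’ with ‘CH8/9’ gave smaller differences. Their median was -0.45 over the 223 genes and 0.02 over all probe sets. It was -0.76 with ‘CH7/8’ replicate 1 alone and 0.07 with replicate 2 alone, so that the direction depended on the array. Both ‘CH7/8’ arrays lay below both ‘CH8/9’ arrays for 48 genes (21.5%, against 13.7% of all probe sets and 15.6% of those with 1 listed gene). Replicate 1 was below both for 151 genes, against 32.1% of all probe sets, and replicate 2 for 72 genes (32.3%, against 31.7% of all probe sets), a share near the background. In 15 genes both ‘CH7/8’ arrays lay above both ‘CH8/9’ arrays (6.73%, against 18.4% of all probe sets). An unadjusted p under 0.05 was reached by 23 genes in the lower direction, against 1.47% of all probe sets, and by 3 in the higher direction, against 1.28%. Only LOC4348295 was called lower, where 0.0164% of all probe sets were, and none was called higher (0.00546% of all probe sets).

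In ‘CH7/8’ against ‘CH7/9’, the hybrids that share the ‘CH7’ parent, both ‘CH7/8’ arrays lay above both ‘CH7/9’ arrays for 151 genes (67.7%, against 11.9% of all probe sets) and below both for 5 (2.24%, against 25.5%). Among probe sets with 1 listed gene these shares were 14.5% and 24.8%. The median difference was 1.31 over the 223 genes and -0.09 over all probe sets. The parents that these hybrids do not share also differed, with the ‘CH8’ mean above the ‘CH9’ mean for 183 of the 223 genes. ‘CH7/8’ replicate 1 alone lay above both ‘CH7/9’ arrays for 154 genes, against 22.9% of all probe sets, and replicate 2 alone for 203 genes, against 25.8%. At an unadjusted p under 0.05, 116 genes were higher in ‘CH7/8’ and 1 lower, against 2.81% and 5.69% of all probe sets. None of the 223 genes was called after adjustment in limma in either direction, where 0.0401% of all probe sets were called higher and 0.0146% lower. With all 12 arrays 15 were called higher and 1 lower.

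**Figure D3:**
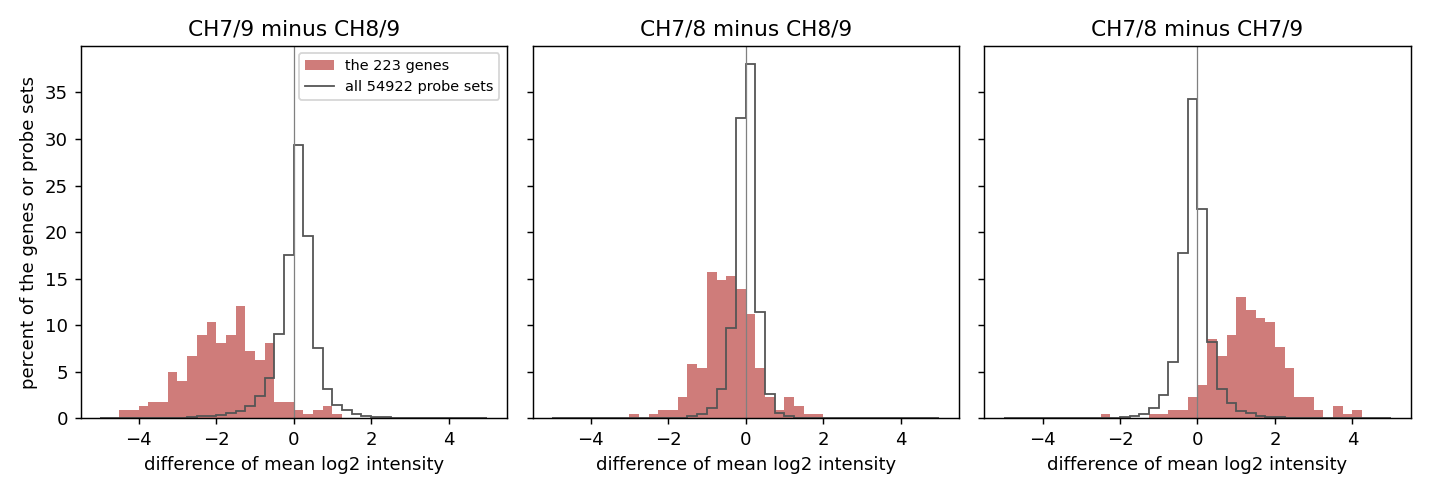
Share of the 223 genes (filled) and of all 54922 probe sets (line) by the difference of mean log2 intensity between hybrids, in bins of 0.25. The 223 genes have medians of -1.75, -0.45 and 1.31, and all probe sets of 0.11, 0.02 and -0.09.

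Among genes of the cell wall, 10 of 115 measured genes of the list belonged to the set (8.70%), where 0.936% of all measured genes did. The list is matched by name, and 1.17% of all 2742 measured genes with a name belonged to the set. They included the cellulose synthase genes *CESA1* (LOC4337958), *CESA6* (LOC4342850) and *CESA8* (LOC4342699), which act in the primary wall. *CESA8* had 6.80 and 7.41 in ‘CH7/8’, 5.95 and 5.82 in ‘CH7/9’ and 7.24 and 7.44 in ‘CH8/9’. Its parental values were 5.45 and 5.72 in ‘CH7’, against 7.68 and 7.76 in ‘CH8’ and 7.41 and 7.22 in ‘CH9’. The ‘CH7/9’ arrays were thus close to ‘CH7’ and below every array of the other hybrids, with a difference from ‘CH8/9’ of -1.45 (SE 0.25, adjusted p = 0.0904).

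*CESA1* was of the same kind, with 7.53 and 8.16 in ‘CH7/8’, 7.01 and 6.99 in ‘CH7/9’ and 7.83 and 7.95 in ‘CH8/9’. It had 6.78 and 6.90 in ‘CH7’, against 8.47 and 8.47 in ‘CH8’ and 8.24 and 8.16 in ‘CH9’. The ‘CH7/8’ arrays lay on either side of the ‘CH8/9’ arrays. *CESA6* stood between the parents in ‘CH7/9’, with 6.26 and 6.42, and its ‘CH7/8’ arrays, 6.20 and 7.75, enclosed the ‘CH8/9’ values of 7.10 and 6.63. In the parents it had 5.38 and 4.96 in ‘CH7’, against 7.44 and 6.97 in ‘CH8’ and 7.31 and 6.97 in ‘CH9’.

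*CSLF6* (LOC4344719), which makes mixed-linkage glucan, had the largest parental gap of the cell wall genes, 2.04. It had 6.05 and 7.38 in ‘CH7/8’, 6.34 and 5.44 in ‘CH7/9’ and 6.95 and 6.66 in ‘CH8/9’, so that the ‘CH7/9’ arrays were below ‘CH8/9’ and the ‘CH7/8’ arrays again enclosed it. The parents had 4.96 and 4.59 in ‘CH7’, against 7.56 and 7.26 in ‘CH8’ and 7.10 and 7.0 in ‘CH9’. *BC1* (LOC4333114), a COBRA-like protein whose loss gives brittle culms, had 6.52 and 4.49 in ‘CH7/8’, 3.14 and 2.35 in ‘CH7/9’ and 4.53 and 3.57 in ‘CH8/9’. Here ‘CH7/8’ replicate 1 was the higher array of its line, unlike in the primary-wall genes, and ‘CH7/9’ was at the ‘CH7’ level of 3.23 and 2.46, against 5.95 and 5.08 in ‘CH8’ and 4.95 and 5.32 in ‘CH9’.

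Enzymes that cut wall glucans were steadier between replicates. The endoglucanase gene *GLU2* (LOC4334029) had 8.12 and 8.26 in ‘CH7/8’, 7.0 and 6.82 in ‘CH7/9’ and 7.88 and 8.22 in ‘CH8/9’. It had 6.61 and 6.78 in ‘CH7’, against 8.54 and 8.43 in ‘CH8’ and 8.02 and 8.13 in ‘CH9’. Both arrays of ‘CH7/8’ were thus near ‘CH8’ and both of ‘CH7/9’ near ‘CH7’, a pattern found in 15 of the 223 genes. The difference of ‘CH7/9’ from ‘CH8/9’ was -1.14 (SE 0.20, adjusted p = 0.0960). A gene listed as *cellulase* (LOC4347685) had 5.97 and 6.29 in ‘CH7/8’, 4.81 and 4.42 in ‘CH7/9’ and 5.86 and 6.08 in ‘CH8/9’, with 4.30 and 4.23 in ‘CH7’, against 6.49 and 6.40 in ‘CH8’ and 5.68 and 5.68 in ‘CH9’.

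The expansin genes *EXPA5* and *EXPB11*, whose products loosen the wall, had the widest replicate spread of the group. *EXPA5* (LOC4330706) had 3.38 and 7.85 in ‘CH7/8’, so that replicate 1 was at the ‘CH7’ level of 3.23 and 4.06 and replicate 2 above the ‘CH8’ level of 7.30 and 5.84. Its values were 3.86 and 3.26 in ‘CH7/9’, against 6.51 and 6.66 in ‘CH8/9’. *EXPB11* (LOC4330213) had 4.13 and 6.03 in ‘CH7/8’, 3.12 and 2.96 in ‘CH7/9’ and 4.26 and 6.61 in ‘CH8/9’, and its ‘CH8’ arrays differed most, with 8.06 and 3.91. *EXLA2* (LOC4349265), an expansin-like gene, was steadier, with 7.25 and 7.87 in ‘CH7/8’, 5.93 and 6.38 in ‘CH7/9’ and 7.99 and 7.90 in ‘CH8/9’. Its difference between ‘CH7/9’ and ‘CH8/9’ was -1.79 (SE 0.27, adjusted p = 0.0787).

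**Figure D4:**
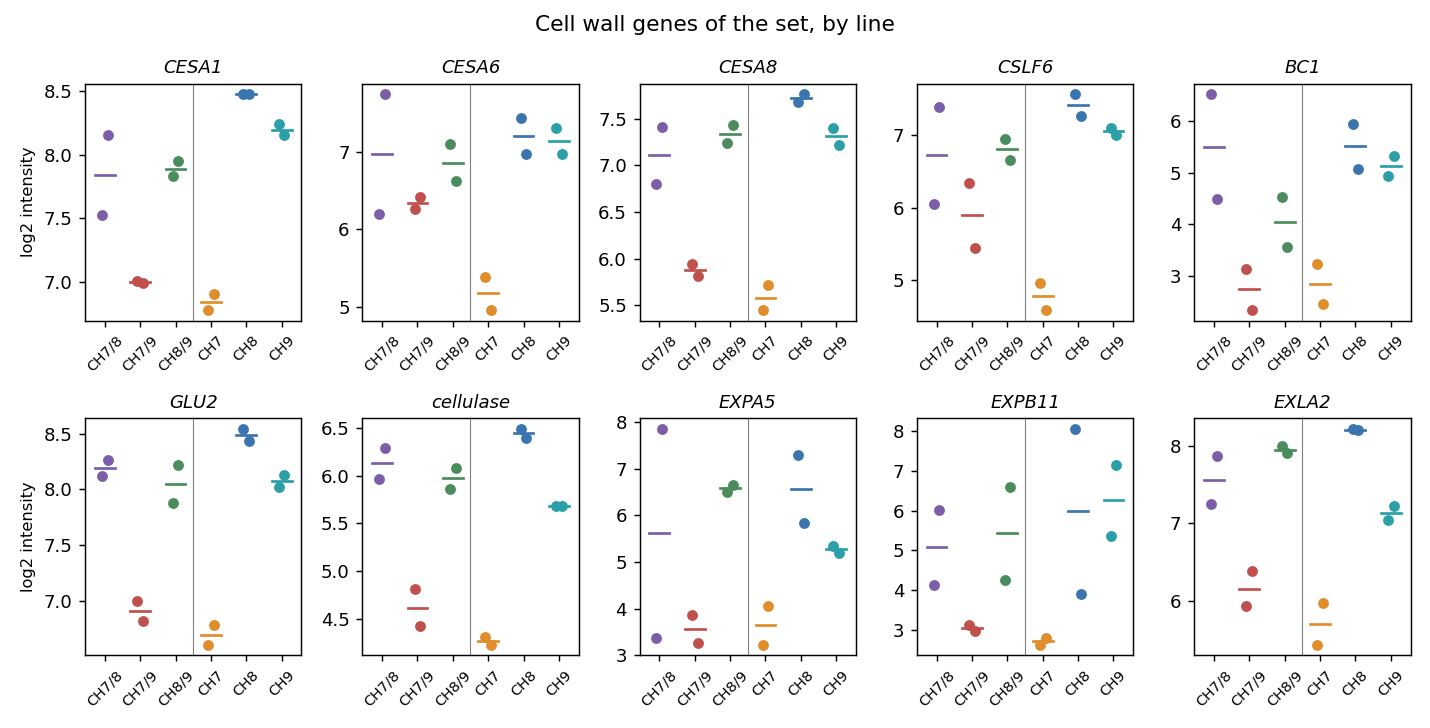
Log2 intensity of the 10 cell wall genes of the set, each point an array and each bar the mean of the 2 arrays of a line, with hybrids left and parents right of the grey line. Vertical scales differ between genes. *CESA8*, *GLU2* and *cellulase* show the mean of ‘CH7/9’ near ‘CH7’, and *EXPA5* shows the ‘CH7/8’ arrays far apart at 3.38 and 7.85.

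Of the 103 other cell wall genes, which did not reach the gap, 24 had an unadjusted p under 0.05 in the lower direction in ‘CH7/9’ against ‘CH8/9’ and 2 in the higher direction, and none was called. Over all measured genes, 2371 and 2412 of 23837 reached this p. The median difference of these 103 genes was -0.15, where that of all measured genes was 0.05. Matching by name also put *BHLH170*, *ILI6* and *KIN4A* among them, which are not named for a wall enzyme or expansin. *CESA3*, a further primary-wall gene, had 4.98 and 5.08 in ‘CH7/9’, against 5.44 and 5.71 in ‘CH8/9’, and so lay below it on both arrays without reaching the parental gap. The cellulose synthase-like gene *CSLD2* had 8.21 and 8.35 in ‘CH7/9’, against 8.09 and 7.83 in ‘CH8/9’, and lay above it. These examples were picked with their values known.

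Further named genes act at the wall or in its supply. *TBL5* (LOC4334575) and *TBL6* (LOC4334574), xylan acetyltransferase genes, are neighbours in the genome. *TBL6* had 4.84 and 4.43 in ‘CH7/8’, 3.23 and 3.66 in ‘CH7/9’ and 4.39 and 4.44 in ‘CH8/9’, and *TBL5* had 6.64 and 6.92, 6.33 and 5.77, and 6.52 and 6.95. Both ‘CH7/9’ arrays were below both ‘CH8/9’ arrays for each gene, more clearly for *TBL6*. The arabinogalactan protein gene *AGP1* (LOC4345858) had 5.96 and 7.35 in ‘CH7/8’ and 6.11 and 6.30 in ‘CH7/9’, against 7.69 and 7.75 in ‘CH8/9’. It was 1 of 3 named genes with both ‘CH7/8’ arrays below both ‘CH8/9’ arrays, which held for 13.7% of all probe sets. *SUS1* (LOC4333062), a sucrose synthase that releases UDP-glucose, had 7.26 and 7.65 in ‘CH7/8’, 6.08 and 4.99 in ‘CH7/9’ and 7.32 and 7.68 in ‘CH8/9’.

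*TUB4* (LOC4327550), a beta-tubulin of the microtubules along which CESA complexes move, had 7.49 and 8.48 in ‘CH7/8’, 5.91 and 5.30 in ‘CH7/9’ and 7.81 and 8.28 in ‘CH8/9’. The parents had 5.57 and 5.76 in ‘CH7’, against 8.28 and 7.47 in ‘CH8’ and 7.67 and 7.56 in ‘CH9’. The ‘CH7/9’ and ‘CH7’ values overlapped, and ‘CH7/9’ was -2.44 from ‘CH8/9’ (SE 0.40, adjusted p = 0.0846). The kinesin gene *KIN8B* (LOC4334272), coding for a motor protein of microtubules, had 6.65 and 8.15 in ‘CH7/8’, 6.32 and 5.96 in ‘CH7/9’ and 7.65 and 7.81 in ‘CH8/9’. It was the only member among 112 measured genes of the cell cycle, kinesin and histone list. Without the genes that reached the gap, this one and *KIN13B* and *KIN14H* left out by name, 17 of 109 genes of the list had an unadjusted p under 0.05 in the lower direction in ‘CH7/9’ against ‘CH8/9’ and 5 in the higher direction, where 2371 and 2412 of all 23837 measured genes did.

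The beta-glucosidase genes, whose products release sugars from glucosides, were low in ‘CH7/9’. *BGLU18* (LOC4336391) had 4.86 and 4.64 in ‘CH7/8’, 3.49 and 3.45 in ‘CH7/9’ and 4.59 and 5.57 in ‘CH8/9’. *BGLU28* (LOC4345996) had 7.14 and 7.40 in ‘CH7/8’, 6.16 and 5.40 in ‘CH7/9’ and 6.99 and 7.11 in ‘CH8/9’, and *BGLU7* (LOC4333841) had 5.08 and 7.52, 4.43 and 4.52, and 7.0 and 7.02. None of their ‘CH7/9’ arrays reached a ‘CH8/9’ array, and the ‘CH7/8’ arrays of *BGLU7* were far apart. They were the only members among 81 measured genes of the defence list.

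Genes of hormone synthesis went different ways. *ACO1* (LOC4347225) and *ACS1* code for the final enzymes of ethylene synthesis, ACC oxidase and ACC synthase. *ACO1* had 7.35 and 10.16 in ‘CH7/8’, 6.55 and 5.89 in ‘CH7/9’ and 10.14 and 10.05 in ‘CH8/9’, with 5.33 and 6.03 in ‘CH7’, against 10.42 and 7.84 in ‘CH8’ and 8.16 and 9.40 in ‘CH9’. The ‘CH7/9’ arrays of *ACO1* were at positions of 0.28 and 0.07, so that only replicate 2 was near ‘CH7’ by the rule used here. The difference from ‘CH8/9’ was -3.87 (SE 0.84, adjusted p = 0.135). *ACS1* had 5.97 and 5.33 in ‘CH7/8’, 6.31 and 6.17 in ‘CH7/9’ and 5.59 and 5.34 in ‘CH8/9’, with 4.16 and 4.75 in ‘CH7’, against 6.50 and 8.70 in ‘CH8’ and 5.85 and 5.94 in ‘CH9’. Both of its ‘CH7/9’ arrays were thus above every ‘CH8/9’ and every ‘CH9’ array, which against ‘CH8/9’ occurred in no other of the 223 genes but in 31.8% of all probe sets, and the difference was 0.77 (SE 0.26, adjusted p = 0.262).

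*NCED3* (LOC4333566), for the cleavage step of abscisic acid synthesis, had 7.53 and 9.27 in ‘CH7/8’, 6.80 and 7.67 in ‘CH7/9’ and 8.42 and 8.76 in ‘CH8/9’. It had 5.39 and 4.99 in ‘CH7’, against 9.28 and 8.87 in ‘CH8’ and 6.55 and 8.10 in ‘CH9’, and belonged to the 8 genes with both ‘CH7/9’ arrays near ‘CH9’. *PSY3* (LOC4347813), a phytoene synthase that feeds carotenoid and abscisic acid synthesis, had 6.67 and 8.36 in ‘CH7/8’, 5.74 and 7.11 in ‘CH7/9’ and 7.73 and 7.61 in ‘CH8/9’. *ILL8* (LOC4342839), an IAA-amino acid hydrolase-like gene, had 3.86 and 4.43 in ‘CH7/8’, 3.95 and 5.20 in ‘CH7/9’ and 3.84 and 4.01 in ‘CH8/9’, and was also near ‘CH9’ in ‘CH7/9’. *NCED3* and *ILL8* were thus placed unlike *ACO1* in ‘CH7/9’, and in *PSY3* and *ILL8* the ‘CH7/9’ replicates were more than 1 apart on the log2 scale. Only *ACO1*, *ACS1* and *NCED3* belonged to the hormone list, which held 183 measured genes.

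In 3 further named genes, put together after their values were seen, the ‘CH7/9’ replicates disagreed. The protein phosphatase gene *PP2C30* (LOC4332374) had 6.48 and 7.30 in ‘CH7/8’, 5.95 and 7.03 in ‘CH7/9’ and 7.25 and 7.11 in ‘CH8/9’. *R40C1* (LOC4332715), an r40 protein gene known to respond to abscisic acid and salt, had 3.58 and 5.34 in ‘CH7/8’, 3.23 and 4.69 in ‘CH7/9’ and 5.43 and 4.99 in ‘CH8/9’. *PXG* (LOC4336376), a peroxygenase gene, had 5.26 and 5.52 in ‘CH7/8’, 3.39 and 5.97 in ‘CH7/9’ and 5.02 and 3.39 in ‘CH8/9’. In each of them ‘CH7/9’ replicate 2 was the higher array by more than 1 on the log2 scale, whereas over the whole set replicate 1 was higher for 150 of the 223 genes. *PP2C69* (LOC4347278), another protein phosphatase gene, had 3.35 and 4.41 in ‘CH7/8’ and 3.21 and 3.51 in ‘CH7/9’, against 4.70 and 4.28 in ‘CH8/9’, and its ‘CH7/9’ replicates were close together.

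Regulators could be read only among the named genes, since the lists are matched by name. The set had *bHLH081* (LOC4347540) as its only member among 265 measured genes of the transcription factor list, which does not hold *RS2*. It had 2.61 and 5.99 in ‘CH7/8’, 3.46 and 3.06 in ‘CH7/9’ and 5.38 and 5.86 in ‘CH8/9’, with 1.88 and 2.01 in ‘CH7’, against 5.75 and 4.96 in ‘CH8’ and 4.07 and 4.89 in ‘CH9’. *RS2* (LOC4352588), a MYB gene that in maize keeps meristem genes off in leaves, had 4.26 and 4.80 in ‘CH7/8’, 3.47 and 3.18 in ‘CH7/9’ and 5.08 and 5.80 in ‘CH8/9’, and was also a named gene with both ‘CH7/8’ arrays below both ‘CH8/9’ arrays. The difference of *RS2* between ‘CH7/9’ and ‘CH8/9’ was -2.12 (SE 0.31, adjusted p = 0.0771). *RAC6* (LOC4328116), a small GTPase of the ROP family, had 5.55 and 6.51 in ‘CH7/8’, 4.88 and 4.41 in ‘CH7/9’ and 6.07 and 6.44 in ‘CH8/9’.

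Over the 32 named genes, both ‘CH7/9’ arrays lay below both ‘CH8/9’ arrays for 29, against 18.7% of all probe sets and 28.2% of those with 1 listed gene. Both ‘CH7/8’ arrays lay below both ‘CH8/9’ arrays for 3, a share below the 13.7% of all probe sets. Both ‘CH7/8’ arrays lay above both ‘CH7/9’ arrays for 18, against 11.9% of all probe sets and 14.5% of those with 1 listed gene. By the means of the arrays, 17 named genes were near ‘CH7’ in ‘CH7/9’ and 17 near ‘CH8’ in ‘CH7/8’. *SUS1* was the only member among 82 measured genes of sugar, starch and energy metabolism. The set had no member among 41 genes of lignin and phenylpropanoid synthesis, 124 of protein kinases and calcium signalling, 171 of membrane transport, 29 of photosynthesis and 99 of cytochromes P450 and detoxification, where 1.17% of all 2742 measured genes with a name belonged to it.

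Most genes with a large parental gap have no name. LOC4349561 had 7.38 and 6.07 in ‘CH7/8’, 3.62 and 2.66 in ‘CH7/9’ and 6.24 and 6.54 in ‘CH8/9’, with 3.15 and 1.96 in ‘CH7’, against 7.62 and 6.63 in ‘CH8’ and 7.01 and 6.87 in ‘CH9’. LOC4343816 had 7.22 and 6.81 in ‘CH7/8’, 2.86 and 2.74 in ‘CH7/9’ and 8.23 and 5.75 in ‘CH8/9’. The ‘CH7/9’ values of LOC4349561 overlapped those of ‘CH7’, and those of LOC4343816 were below the ‘CH7’ values of 3.01 and 2.98, while both ‘CH7/8’ arrays were near ‘CH8’ in each gene. LOC4343230, LOC4327631, LOC4330203, LOC4338096, LOC4350734 and LOC4346676 complete the 10 largest gaps together with the pair of genes described next, and their mean differences between ‘CH7/9’ and ‘CH8/9’ ranged from -3.91 in LOC4343230 to -1.08 in LOC4350734.

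The largest gap, 3.64, belonged to LOC4350644, and its neighbour in the RefSeq gene order, LOC4350643, was also in the set. LOC4350644 had 5.21 and 5.01 in ‘CH7/8’, 5.29 and 5.37 in ‘CH7/9’ and 5.93 and 5.98 in ‘CH8/9’, with 1.96 and 2.26 in ‘CH7’, against 5.95 and 5.89 in ‘CH8’ and 6.12 and 6.21 in ‘CH9’. LOC4350643 had 5.50 and 5.70 in ‘CH7/8’, 5.45 and 5.20 in ‘CH7/9’ and 5.68 and 6.36 in ‘CH8/9’, with 2.91 and 2.88 in ‘CH7’, against 5.65 and 5.86 in ‘CH8’ and 5.50 and 5.55 in ‘CH9’. Only the ‘CH7’ arrays were low in these genes, and the replicates of each line were close together in LOC4350644. On the linear scale LOC4350644 was midway between the parents, at positions of 0.58 and 0.50 in ‘CH7/8’ and 0.52 and 0.55 in ‘CH7/9’. By the rule used here, all 4 arrays of ‘CH7/8’ and ‘CH7/9’ were near neither parent on that scale in 5 of the 223 genes. These were LOC4350644, LOC4350734, LOC4342726, LOC9267585 and LOC4338334.

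LOC4348295 differed between the high parents and was the gene called in ‘CH7/8’. It had 3.0 and 3.40 in ‘CH7/8’, 5.41 and 5.72 in ‘CH7/9’ and 6.26 and 6.06 in ‘CH8/9’, with 2.47 and 2.41 in ‘CH7’, against 3.54 and 3.68 in ‘CH8’ and 7.03 and 7.06 in ‘CH9’. Both hybrids with ‘CH9’ were high and ‘CH7/8’ was low, and the difference of ‘CH7/8’ from ‘CH8/9’ was -2.96 (SE 0.22, adjusted p = 0.0440). The call was lost with a pseudocount, with quantile normalization, with median centring and without any 1 of the 6 arrays.

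**Figure D5:**
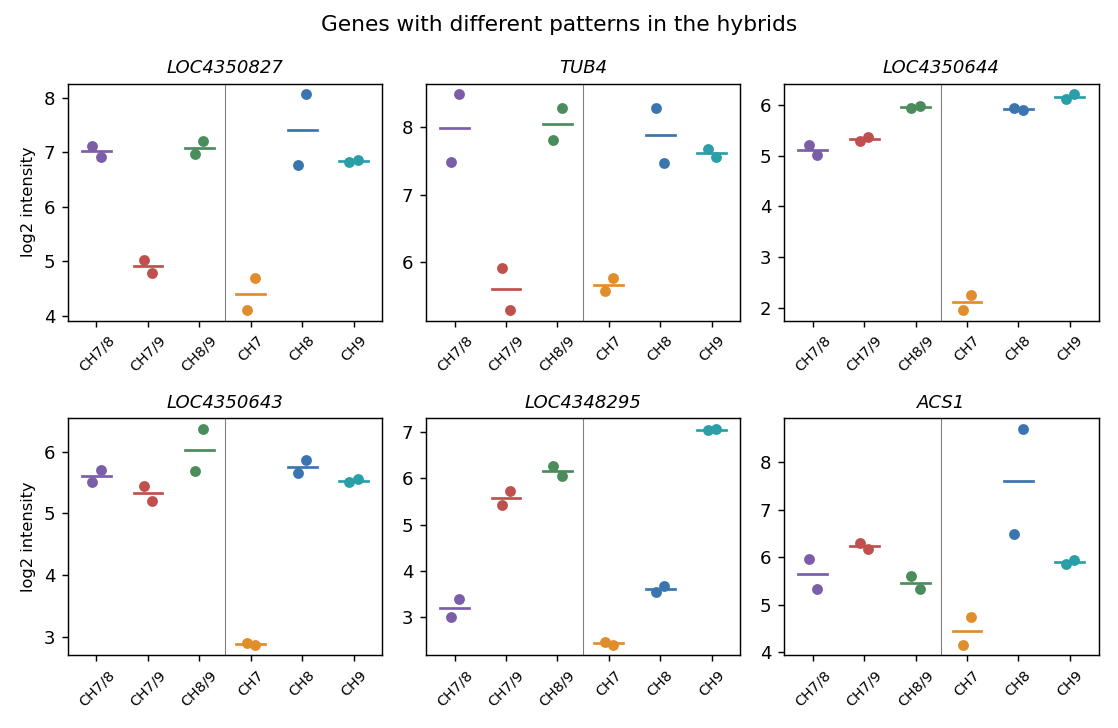
Log2 intensity of 6 genes of the set, each point an array and each bar the mean of the 2 arrays of a line, with hybrids left and parents right of the grey line and with vertical scales that differ between genes. In LOC4350827 and *TUB4* only the ‘CH7/9’ mean among the hybrids is near ‘CH7’, and in LOC4350644 and LOC4350643 no hybrid mean is. In LOC4348295 the hybrids with ‘CH9’ are high, and in *ACS1* both ‘CH7/9’ arrays, 6.31 and 6.17, are above both ‘CH8/9’ arrays.

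The extremes of ‘CH7/9’ were chosen by its mean position. The highest were LOC4347179, *ACS1*, *ILL8*, *NCED3* and LOC4350643. The lowest were LOC4346052, LOC4325477, LOC4337725, LOC4339940 and LOC4346499. LOC4337725 had 8.77 and 8.48 in ‘CH7/8’, 6.11 and 4.71 in ‘CH7/9’ and 8.55 and 8.47 in ‘CH8/9’, with 6.12 and 6.05 in ‘CH7’, so that its ‘CH7/9’ arrays were at or below ‘CH7’. LOC4325477 had 2.93 and 2.72 in ‘CH7/9’, against 5.18 and 5.58 in ‘CH8/9’, and both of these ‘CH7/9’ values were below its ‘CH7’ values of 3.19 and 3.12. In ‘CH7/9’ replicate 2 as many as 63 of the 223 genes were below the ‘CH7’ mean, and in replicate 1 there were 15.

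Of the 223 genes, 14 (6.28%) formed 7 pairs next to each other in the RefSeq order of the 23836 measured genes. The 223 make up 0.936% of these, but a gene has neighbours on both sides, so these shares are not like measures. The share of such pairs in a random order was not worked out. Besides LOC4350643 with LOC4350644 and *TBL6* with *TBL5*, these were LOC4325476 with LOC4325477, LOC4326742 with LOC4326743, LOC4326986 with LOC9271433, *EXLA2* with LOC9267334, and LOC4338145 with LOC4338149. Whether probes of similar neighbouring genes share signal was not tested. Only LOC4333187 had another probe set with 1 listed gene, and that probe set was below the array median on all 12 arrays.

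Outside the set, the genes most like its median profile over the 12 arrays were LOC4345046 (r = 0.973), LOC4340531 (r = 0.969), the protein kinase gene *SAPK10* (r = 0.967), LOC4336483 (r = 0.964) and *TLP5* (r = 0.962), with gaps between 0.556 and 0.982. The arrays share their parents and the best of many genes were taken, so these values are a description. *SAPK10* (LOC4333435), a kinase of the abscisic acid response, had 6.66 and 7.03 in ‘CH7/8’, 6.42 and 6.19 in ‘CH7/9’ and 6.85 and 6.98 in ‘CH8/9’, with 5.93 and 6.12 in ‘CH7’, against 7.32 and 7.04 in ‘CH8’ and 6.67 and 6.68 in ‘CH9’.

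Since whole plants were used, markers of organs and of dividing cells were read on the same arrays as sums of linear intensities over 1 probe set per gene. Of the markers of stem and vascular secondary walls 4 of 8 were measured, and their sum was 601 and 244 in ‘CH7/8’, 66.9 and 48.2 in ‘CH7/9’, 207 and 113 in ‘CH8/9’, 54.1 and 37.8 in ‘CH7’, 459 and 492 in ‘CH8’ and 172 and 274 in ‘CH9’. Except *CESA7*, they had reached the gap themselves, as *CESA4*, *CESA9* and *BC1*, so that the order of the parents in this sum was fixed by the choice of genes. *CESA7* alone had 28.5 and 17.6 in ‘CH7/8’, 13.4 and 8.0 in ‘CH7/9’, 17.8 and 13.3 in ‘CH8/9’, 9.9 and 8.0 in ‘CH7’, 33.0 and 27.3 in ‘CH8’ and 12.8 and 25.1 in ‘CH9’. *CESA7*, the only marker here that did not reach the gap, thus overlapped between ‘CH7/9’ and ‘CH8/9’, and both of its ‘CH7/9’ values were below both ‘CH7/8’ values.

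For dividing cells, the 11 markers that did not reach the gap summed to 269 and 670 in ‘CH7/8’, 291 and 326 in ‘CH7/9’, 422 and 573 in ‘CH8/9’, 313 and 301 in ‘CH7’, 416 and 212 in ‘CH8’ and 443 and 363 in ‘CH9’. ‘CH7/8’ replicate 2 was thus the highest array of all, whereas replicate 1 was lower than every array but ‘CH8’ replicate 2. The 13 of 16 root markers measured summed to 702 and 506 in ‘CH7/8’, 656 and 1211 in ‘CH7/9’, 287 and 634 in ‘CH8/9’, 1359 and 1022 in ‘CH7’, 146 and 171 in ‘CH8’ and 867 and 1103 in ‘CH9’. The 5 of 16 leaf markers measured summed to 710 and 555 in ‘CH7/8’, 1114 and 1027 in ‘CH7/9’, 284 and 347 in ‘CH8/9’, 743 and 653 in ‘CH7’, 480 and 610 in ‘CH8’ and 541 and 624 in ‘CH9’. Over the 9 flower and panicle markers the 12 sums lay between 371 and 620. A sum mostly follows its brightest marker. For the root this was *NAAT1*, with log2 values of 9.94 and 9.69 in ‘CH7’, 4.38 and 4.91 in ‘CH8’ and 9.35 and 9.89 in ‘CH9’. The root marker *Lsi1* was not lower in ‘CH8’, with 4.91 and 5.30, than in ‘CH9’, with 4.91 and 4.83. The flower and panicle sums mostly followed *FDRMADS7*. Whether the sums reflect amounts of organs, and their part in the levels of the 223 genes, was not tested.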

How the data were processed

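The authors deposited 1 table of linear intensity values for 12 arrays, 2 per line. The submitters' notes name MAS5 without a version, whereas the study's methods describe RMA with its quantile normalization and background subtraction, so which of them made the values is not known. The values, from 1.58 to 4035, were taken to log2 without a pseudocount or further normalization. The number of arrays limits the precision. Genes were named from the platform annotation, with RefSeq names and gene order (ASM3414082v1), and all 223 genes were found there. The RefSeq table was used for no coordinates.

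The 223 genes and the gene lists were chosen with earlier results of these data known, and 2 list patterns were corrected once the annotation had been seen. A list is matched by gene name, so genes without a name are in none, and it counts a gene by its brightest probe set. Hybrids were compared with limma 3.58.1 in R 4.3.3 on the 6 hybrid arrays, with a mean per line and eBayes. The fit was tested on simulated data. Leaving the parental arrays out keeps the test apart from the values that the rule used. Same-numbered arrays did not vary together (r of their deviations between -0.17 and 0.06 over all probe sets), and the main fit does not pair them. With 2 arrays per line such an r cannot exclude a pairing.

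Genes to name were the 30 named ones with the largest gaps, the 10 largest gaps, 3 on each side of the threshold, those called, the 5 highest and 5 lowest in ‘CH7/9’ by position, and the 5 most similar outside. Alternatives were another normalization, pseudocounts of 1 and 50, a filter on dim probe sets, other arrays in the fit, a mean-dependent spread, array weights, a replicate block, other gaps, the linear scale and leaving out each array. Promoter motifs were not analysed here.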

Additional observations from a re-analysis of the deposited data

Results flagged for a closer look

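Among the 223 genes, 10 had both ‘CH7/9’ arrays below and both ‘CH7/8’ arrays above both ‘CH8/9’ arrays, so that the hybrids with a ‘CH7’ genome lay on opposite sides of ‘CH8/9’. They were *BGLU28*, LOC4327909, LOC4339971, LOC4327322, LOC4351267, LOC4337608, LOC4334871, LOC4339617, LOC4337166 and LOC4331484. The same order was found in 0.528% of all probe sets, and the opposite order in 0 of the 223 genes and 1.43% of all probe sets. The difference of ‘CH7/8’ from ‘CH8/9’ ranged over these genes from 0.14 in LOC4337608 to 1.37 in LOC4327909, and limma called none of them in it. The limma comparison of ‘CH7/8’ with ‘CH7/9’, which does not test a place above ‘CH8/9’, also called none. LOC4334871 had 6.80 and 6.55 in ‘CH7/8’, 4.64 and 4.17 in ‘CH7/9’ and 6.50 and 6.54 in ‘CH8/9’, and its difference between ‘CH7/8’ and ‘CH7/9’ was 2.27 (SE 0.22, adjusted p = 0.0674).

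Outside the set, 36 probe sets with no or several listed genes reached the same parental gap. They are a signal in probe sets that the comparisons above do not use, and no gene is named for them.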

How the results depend on the processing

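With 2 arrays per line the number of calls depended on the fit. For ‘CH7/9’ against ‘CH8/9’ the number of the 223 genes called lower was 1. It was 0 with a pseudocount of 1 or 50, with array weights and with the replicate block, 12 without dim probe sets, 15 with a mean-dependent spread, 62 with all 12 arrays, 82 with only the lines compared, and between 0 and 82 when 1 array was left out. The 82 calls without either ‘CH7/8’ array come from the same fit as with only the lines compared, since a lone array adds nothing to the spread. A crossed replicate block on the 4 arrays of these lines, added after seeing the data, gave 142 calls and the same-numbered block 74. The median difference was -0.78 with a pseudocount of 50.

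For ‘CH7/8’ against ‘CH8/9’ the single call was lost, giving 0, under quantile normalization, median centring, pseudocounts of 1 and 50, only the lines compared, a mean-dependent spread and the replicate block, and the count was also 0 when any 1 of the 6 hybrid arrays was left out. The median difference was between -0.76 and 0.0693 when 1 array was left out, and its direction reversed, at 0.0693, without ‘CH7/8’ replicate 1. The count with both arrays below both, 48, was 151 without ‘CH7/8’ replicate 2 and 99 without ‘CH8/9’ replicate 1, with a range from 64 to 151 over the arrays left out after seeing the data, which can only raise such a count. For ‘CH7/8’ against ‘CH7/9’, all 12 arrays gave 15 calls higher and 1 lower, the median difference was 0.56 with a pseudocount of 50, and between 0.77 and 1.75 when 1 array was left out. The replicate block changed no other call.

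The number of genes in the set was 645 with a gap of 0.5, 28 with a gap of 2 and 16 with a pseudocount of 50, and between 232 and 434 when 1 parental array was left out, which can only add genes. The median position of ‘CH7/9’ replicate 1 was 0.18 on the linear scale. Among named genes in ‘CH7/9’ against ‘CH8/9’, the direction of *PXG* reversed, to -0.81 without ‘CH7/9’ replicate 2 and to -0.33 without ‘CH8/9’ replicate 2 (between -0.81 and 1.77 over the arrays left out), and 41 of 512 values became calls. All other values of named genes kept their direction in these alternatives. Causes were not tested except where the number of arrays in the fit shows them.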

Other observations

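Photosynthesis genes, none of which belonged to the set, were mostly higher in ‘CH7/9’ than in ‘CH8/9’. Of 29 measured genes, 22 had a positive difference and 16 an unadjusted p under 0.05 in the higher direction, against 1 in the lower direction, where 12949 of all 23837 measured genes were above 0 and 2412 and 2371 reached this p. None of the 29 was called by limma after adjustment. Their median difference was 0.95, where that of all measured genes was 0.05. In ‘CH7/8’ against ‘CH8/9’ 24 of the 29 were above 0, with a median of 0.36 and 8 genes at an unadjusted p under 0.05 in the higher direction, where 10835 of all measured genes were above 0 and 278 reached this p in that direction.

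The opposite set, 125 genes that were high in ‘CH7’ only by the same gap, also set the ‘CH7/8’ arrays apart. On replicate 1 the median position was 0.38 with 13 genes near ‘CH8’, and on replicate 2 it was 0.94 with 100 genes near ‘CH8’. In ‘CH7/9’ the medians were 0.39 and 0.55, with 35 and 18 genes near ‘CH7’. These positions use the values that chose the genes and are a description.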
